A study of Rattus norvegicus with 5 samples.

Results

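The immediate early genes described here are *Fos*, *Fosb*, *Fosl2*, *Junb*, *Arc*, *Egr1*, *Egr3*, *Nr4a1*, *Npas4* and *Homer1*, 10 of the 32883 genes in the count tables, each found under 1 gene name in every library. They were followed in single-nucleus RNA sequencing (snRNA-seq) of the ventral tegmental area (VTA) of 5 rats, 1 library per rat. All 5 samples form 1 group: the sample labels give the treatment as saline, whereas the study calls the rats drug-naïve. Its methods describe them as adult male Sprague-Dawley rats, and bilateral tissue punches of each animal were combined. No drug or stimulus group was analysed here, so the comparisons are between classes of nuclei of the same rats, and tissue was flash-frozen after rapid decapitation. Each transcript caught in a droplet carries a unique molecular identifier (UMI), and levels are given as UMIs of a gene per 10000 UMIs of all genes, summed over the nuclei of a class in a rat.

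Immediate early genes are switched on within minutes of a stimulus by transcription factors that are already in the cell, among them CREB and serum response factor. Their products fall into 2 kinds: transcription factors, such as the AP-1 subunits of the Fos and Jun families, the zinc finger proteins of the Egr family, the nuclear receptor Nr4a1 and the neuronal factor Npas4, and effectors that act at synapses, such as Arc and the short form of the scaffold protein Homer1. In neurons they are widely read as marks of recent activity, and several of them are also used by glial and vascular cells.

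Barcodes with at least 600 UMIs, more than 200 and fewer than 5000 genes and under 5% mitochondrial UMIs numbered 2733, 18927, 3948, 5204 and 4422 in rats 1 to 5, and libraries held 10193355 to 88576210 UMIs. After removal of likely doublets, clusters named by their markers held 9211 oligodendrocytes, 6075 neurons, 1200 astrocytes, 944 precursors of oligodendrocytes (OPCs), 714 microglia and 550 nuclei of blood vessels, called vascular nuclei, and the neurons included 1055 dopaminergic-like, 1940 GABA-like and 829 glutamatergic-like nuclei. All markers of the 6 major classes were highest in their own class, as were all 7 dopaminergic and all 4 GABA markers and 6 of 7 glutamatergic markers, *Slc17a8* being the exception. Clusters were named by these same markers, so this order is no separate check of the names. Among the 6 glutamatergic markers, *Pou4f1* stood at only 0.00082 UMIs per 10000. *Th* and *Slc6a3* stood at 6.0 and 6.91 UMIs per 10000 in dopaminergic-like neurons and below 0.589 in both other neuron classes. Clusters were not pure by their leading genes. Among the neurons, 5 groups of the second clustering, 893 of the 6075 nuclei, had a non-neuronal marker among their 10 leading genes: *Gja1* of astrocytes in 337 and 60 nuclei of rat 3, *Mog* and *Vcan* in 148, *Sox6* in 208 and *Ptprc* in 140. The last of these was a glutamatergic-like group, 131 of its nuclei from rat 2, led by no glutamatergic marker and by the glycine transporter gene *Slc6a5* among others, and a GABA-like group of 16 nuclei was led by *Slc17a8* and no GABA marker. Nearly all of rat 3's neurons came from clusters in which 4 of 7 neuron markers were raised, against 6 or 7 in the other neuron clusters. Results were repeated without these groups, a choice made after the data were seen. Rat 3 had no class of astrocytes or OPCs and rat 1 too few dopaminergic-like nuclei, so those classes rest on 4 rats. An alternative clustering (30 components, libraries centred) gave rat 3 195 astrocytes and 207 OPCs, so their absence depends on the clustering. Rat 3 stood apart: its library was the smallest, neurons made up 72.0% of its named nuclei against 15.7% to 27.5% in the others, and *Jund*, another AP-1 subunit, reached 9.34 UMIs per 10000 in its neurons against 0.0685 to 0.324 in those of the other rats. The 72.0% includes the 337 and 60 nuclei of the groups led by *Gja1*. Pairs of libraries shared 2 to 27 kept barcodes. The 7 oligodendrocyte markers summed to 205 to 316 UMIs per 10000 in oligodendrocytes, and also to 58.3 to 129 in microglia, 60.4 to 118 in vascular nuclei, 38.9 to 106 in OPCs and 24.9 to 98.9 in astrocytes, and the part of such RNA in the results below was not tested beyond the subtraction of free RNA.

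To show what sequence lies in front of members whose levels are described below, the 250 bases before the RefSeq start of 4 genes are given 5′ to 3′ (build GRCr8). Capitals mark the CArG box bound by serum response factor and the EGR site GCGNGGGCG, which were searched on both strands. The windows are *Egr1* on chromosome 18, plus strand, 26736828 to 26737077, *Nr4a1* on chromosome 7, plus strand, 134259888 to 134260137, *Junb* on chromosome 19, plus strand, 40080876 to 40081125, and *Homer1* on chromosome 2, plus strand, 26278762 to 26279011.

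Egr1: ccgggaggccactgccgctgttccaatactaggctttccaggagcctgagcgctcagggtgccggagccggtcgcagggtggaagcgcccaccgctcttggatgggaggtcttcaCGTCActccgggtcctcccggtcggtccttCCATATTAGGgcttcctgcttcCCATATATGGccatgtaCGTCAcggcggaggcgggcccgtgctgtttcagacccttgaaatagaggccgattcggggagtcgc
Nr4a1: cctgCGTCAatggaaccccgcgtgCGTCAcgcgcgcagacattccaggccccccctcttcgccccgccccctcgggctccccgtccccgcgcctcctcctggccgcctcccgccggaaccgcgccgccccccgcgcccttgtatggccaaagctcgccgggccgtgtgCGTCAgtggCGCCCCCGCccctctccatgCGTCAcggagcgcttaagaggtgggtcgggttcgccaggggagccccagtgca
Junb: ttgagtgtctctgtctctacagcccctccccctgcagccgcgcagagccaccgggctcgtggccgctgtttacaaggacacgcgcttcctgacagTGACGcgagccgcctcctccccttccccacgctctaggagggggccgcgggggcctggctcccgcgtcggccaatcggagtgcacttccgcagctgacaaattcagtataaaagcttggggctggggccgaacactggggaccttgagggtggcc
Homer1: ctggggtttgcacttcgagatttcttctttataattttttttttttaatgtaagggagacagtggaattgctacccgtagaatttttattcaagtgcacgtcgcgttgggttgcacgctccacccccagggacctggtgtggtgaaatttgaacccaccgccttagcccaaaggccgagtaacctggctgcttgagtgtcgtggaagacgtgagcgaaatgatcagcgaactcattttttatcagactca

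The short core of the CREB response element (CRE), TGACG, also in capitals, occurred 4 times in front of *Nr4a1*, 2 times in front of *Egr1*, 1 time in front of *Junb* and not in the *Homer1* window, and 18.2% of 33465 rat promoter windows of this length held it. The 2 CArG boxes of *Egr1* began 105 and 83 bases before the start, and 1.5% of windows held such a box. The EGR site in front of *Nr4a1*, on the minus strand, began 73 bases before the start, and 4.29% of windows held one. Windows were found for 7 of the 10 members, and neither the full CRE TGACGTCA nor the AP-1 site TGANTCA was in any of the 7, against 1.59% and 6.34% of all windows. These matches describe letters and not binding.

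*Homer1* was the member with the most UMIs, and its level separated neurons and OPCs from the other classes. All isoforms of *Homer1* share 1 gene count, so its levels here and below cannot be read as those of the short form. In neurons *Homer1* stood at 2.05, 1.79, 1.90, 1.68 and 1.58 UMIs per 10000 in rats 1 to 5 (1.80 ± 0.184, SD, n = 5), and in oligodendrocytes at 0.583, 0.653, 0.662, 0.555 and 0.505 (0.591 ± 0.0661, n = 5). Every rat's neurons lay above every rat's oligodendrocytes. In OPCs it was 2.24, 1.52, 1.71 and 1.83 in rats 1, 2, 4 and 5, which overlapped the neurons. By the quasi-likelihood test of edgeR with the rat as a block and Benjamini-Hochberg adjustment over 12037 genes, *Homer1* was higher in neurons than in oligodendrocytes by 1.45 on the log2 scale (SE 0.135, adjusted p = 2.27e-11) and in OPCs by 1.48 (SE 0.15, adjusted p = 4.59e-10). In vascular nuclei, at 0.437 ± 0.124 (n = 5), it was lower than in oligodendrocytes in 4 of 5 rats (log2 fold change -0.68, SE 0.21, edgeR adjusted p = 0.00746). That vascular call was lost with DESeq2 (-0.45), with its size factors (-0.45) and without rat 2 (-0.64). The means in astrocytes (0.803 ± 0.213, n = 4) and microglia (0.588 ± 0.121, n = 5) did not pass the edgeR test. The log2 fold change was 0.22 in astrocytes, with an approximate 95% interval of -0.10 to 0.54, and their level was above that of oligodendrocytes in 4 of 4 rats. In microglia it was -0.35, with an interval of -0.72 to 0.01 (edgeR adjusted p = 0.132). The level in microglia was nevertheless higher than in oligodendrocytes in 3 of 5 rats and lower in 2, with means of 0.588 and 0.591. A decrease in microglia is thus not shown. In the order of means, glutamatergic-like neurons came first, then OPCs, GABA-like and dopaminergic-like neurons, astrocytes, oligodendrocytes, microglia and vascular nuclei, and neighbours overlapped except dopaminergic-like neurons and astrocytes.

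Of the 10 members, 3 passed the filter on low counts in the fit of the 6 major classes, *Homer1*, *Junb* and *Egr1*. The filter keeps a gene that is high enough in as few sums as the smallest class has. Classes with high levels can thus decide what is tested. Of the genes tested, 68.5% were called between neurons and oligodendrocytes, 42.4% for OPCs, 46.8% for astrocytes, 43.0% for microglia and 53.0% for vascular nuclei, and the calls of members are to be read against these shares. Called members were *Homer1* and *Junb* in neurons, *Homer1* in OPCs, none in astrocytes, *Junb* in microglia, and *Homer1*, *Junb* and *Egr1* in vascular nuclei. In astrocytes none of these 3 members reached an unadjusted p of 0.05 with edgeR, and DESeq2 called *Homer1* (log2 fold change 0.37, adjusted p = 0.0440). The values of *Nr4a1*, *Fosl2* and *Fos* below come from the same fit without the filter, over 24124 genes, in which 45.6%, 24.2%, 26.8%, 24.0% and 28.7% of genes were called in the same order of classes. In that fit *Fos*, *Fosl2* and *Nr4a1* were under an unadjusted p of 0.05 in astrocytes, and *Fos* alone passed after adjustment (edgeR, adjusted p = 0.0201).

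**Figure D1:**
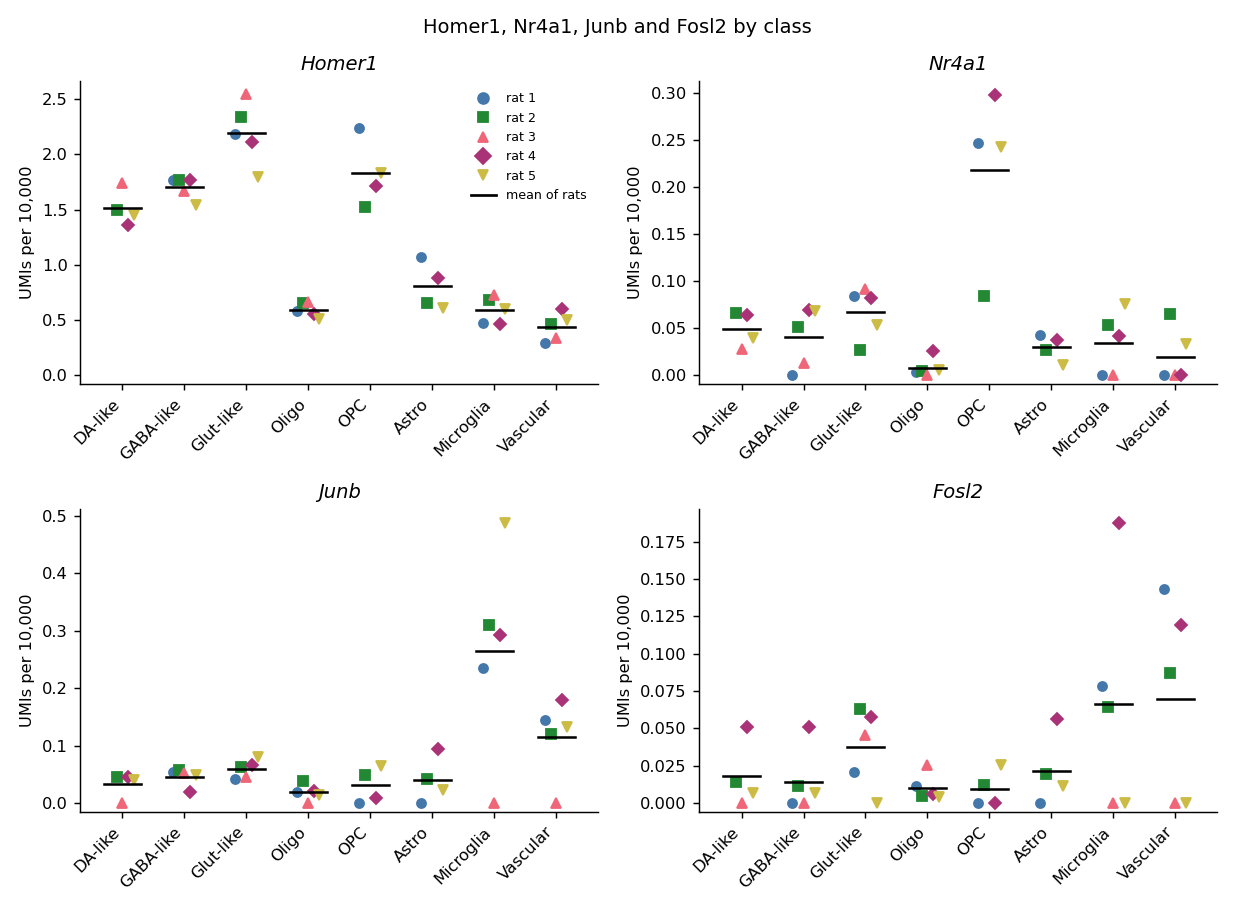
Levels of *Homer1*, *Nr4a1*, *Junb* and *Fosl2* in UMIs per 10000 (vertical axes) in 8 classes of nuclei, with 1 marker per rat and a bar at the mean of rats. *Homer1* was high in the neuron classes and OPCs, *Nr4a1* in OPCs, and *Junb* in microglia of 4 rats, rat 3 having too few UMIs to place it.

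*Nr4a1* encodes an orphan nuclear receptor induced by activity and by growth factors. In OPCs its level was 0.247, 0.0842, 0.298 and 0.243 UMIs per 10000 in rats 1, 2, 4 and 5 (77 UMIs in all), whereas oligodendrocytes of rats 1 to 5 gave 0.00386, 0.00436, 0, 0.0257 and 0.00566 (35 UMIs in all). Each rat's OPCs were above each rat's oligodendrocytes. The difference was 3.88 on the log2 scale (edgeR without the filter, SE 0.351, adjusted p = 5.04e-27), and the call was kept in all 15 alternatives of that fit, with log2 fold changes of 3.6 to 5.71. OPCs were also above the free RNA of their own library in 4 of 4 rats. A UMI of *Nr4a1* was found in 6.99% of OPCs (66 of 944, exact 95% interval 5.45% to 8.81%), in 2.14% of neurons (interval 1.79% to 2.54%) and in 0.358% of oligodendrocytes (interval 0.247% to 0.503%). After thinning each nucleus to 1000 UMIs and leaving out shallower nuclei, the shares were 2.18% of OPCs, 0.389% of neurons and 0.157% of oligodendrocytes. Such shares, here and below, pool the nuclei of all rats, and their intervals hold no spread between rats. Rat 2 gave 455 of the 944 OPCs, and rat 3 gave 2474 of the 6075 neurons, at a median of 1384 UMIs.

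Neurons held *Nr4a1* at 0.0551, 0.0472, 0.0337, 0.0637 and 0.0565 UMIs per 10000 in rats 1 to 5, above the oligodendrocytes of the same rat in 5 of 5. The oligodendrocyte 0 of rat 3 allows up to 0.0382, above its neurons, so the direction in rat 3 is not determined. The log2 fold change was 2.09 (edgeR without the filter, SE 0.327, adjusted p = 9.11e-10). Rat 4 gave 27 of the 35 oligodendrocyte UMIs, and without it the value was 3.17, within a range of 1.27 to 3.70 over the alternatives. The level in neurons was nevertheless below the free RNA of the same library in 2 of 5 rats, and the call was lost after thinning (log2 fold change 1.27). In microglia the log2 fold change of 1.70 (edgeR without the filter, SE 0.62, adjusted p = 0.0362) rested on 9 UMIs, and the call was lost in 6 of 15 alternatives, among them without rat 2 (0.93) and without rat 5 (1.36), and the sign turned with nuclei typed by their own markers (-4.67, adjusted p = 0.769). Without rat 4 the value was 2.94.

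*Junb*, the AP-1 subunit that is induced in many cell types, was highest in microglia. Its level there was 0.235, 0.310, 0, 0.292 and 0.488 UMIs per 10000 in rats 1 to 5 (59 UMIs in all), against 0.0193, 0.0381, 0, 0.0200 and 0.0132 in oligodendrocytes. In the 4 rats other than rat 3, microglia lay above all oligodendrocytes. The 0 of rat 3 is out of 82929 UMIs, which allows a level of up to 0.362 UMIs per 10000, above the level of 3 of the other 4 rats. *Junb* was higher by 3.35 on the log2 scale (edgeR, SE 0.388, adjusted p = 9e-09), and the call was kept in all 15 alternatives in which it was tested. Microglia were above the free RNA of their own library in 3 of 5 rats. In rat 4 free RNA held 0.380 and microglia 0.292 UMIs per 10000, while neurons and oligodendrocytes of that rat were at 0.0385 and 0.0200. With free RNA subtracted, the log2 fold change in microglia was 6.50. The subtracted share is an upper limit and sums were cut off at 0, which can empty the low oligodendrocyte sums. The size of this value therefore does not show a larger difference.

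Vascular nuclei held *Junb* at 0.144, 0.120, 0, 0.179 and 0.132 UMIs per 10000 in rats 1 to 5 (20 UMIs), a log2 fold change of 2.02 over oligodendrocytes (edgeR, SE 0.513, adjusted p = 0.00137). They were above the free RNA of their library in 2 of 5 rats. Of the 20 UMIs, 9 came from the 102 vascular nuclei with as many endothelial as mural or fibroblast markers (0.301 UMIs per 10000 pooled over rats), 8 from the 335 with more endothelial markers (0.0843) and 3 from the 113 with more mural or fibroblast markers (0.0966). In neurons the mean was 0.0373 ± 0.0153, higher than in oligodendrocytes in 5 of 5 rats by 0.77 on the log2 scale (edgeR, SE 0.336, adjusted p = 0.0428), a call that 9 of 15 alternatives lost, among them without the groups led by other markers (0.74, adjusted p = 0.0561) and without rats 1 (0.74), 3 (0.71), 4 (0.72) and 5 (0.61) in turn, and neurons were below the free RNA level in every rat. Values over the alternatives ranged from 0.51 to 2.06. The oligodendrocyte 0 of rat 3 allows up to 0.0382, above its neurons, so the direction in rat 3 is not determined. *Junb* UMIs were found in 7.84% of microglia (56 of 714, exact 95% interval 5.98% to 10.1%) and in 0.717% of oligodendrocytes, and after thinning in 4.76% and 0.205%. In vascular nuclei the share was 3.45% (19 of 550), and after thinning 0.448% (2 of 446, exact 95% interval 0.0544% to 1.61%), which overlapped that of oligodendrocytes (0.119% to 0.328%). *Junb* did not pass the filter in the thinned sums. In the thinned fit without the filter, the log2 fold change was 4.09 in microglia (edgeR adjusted p = 4.32e-14) and 0.58 in vascular nuclei (adjusted p = 0.967), so the vascular call was lost there. The heat shock and stress genes, taken as a summed level, were higher than in the oligodendrocytes of the same rat in microglia in 5 of 5 rats (4.57 to 12.4 against 3.56 to 8.38 UMIs per 10000) and in vascular nuclei in 5 of 5 (5.48 to 16.0). The median mitochondrial share was higher in microglia in 4 of 5 rats and in vascular nuclei in 5 of 5 (0.737% to 3.06% against 0.274% to 1.27% in oligodendrocytes), and the part of either in the levels of *Junb*, *Fosl2* and *Egr1* in these classes was not tested.

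*Fosl2*, which encodes Fra-2, a Fos family subunit, was also found in microglia and vascular nuclei. It stood at 0.0784, 0.0641, 0, 0.188 and 0 UMIs per 10000 in microglia of rats 1 to 5 (16 UMIs) and at 0.144, 0.0870, 0, 0.119 and 0 in vascular nuclei (12 UMIs), against 0.00377 to 0.0254 in oligodendrocytes. The log2 fold change was 3.14 for microglia (edgeR without the filter, SE 0.615, adjusted p = 3.01e-06) and 3.14 for vascular nuclei (SE 0.68, adjusted p = 2.95e-05). These rest on 3 of 5 rats, and both classes were at 0 in rats 3 and 5, whose sums allow up to 0.362 and 0.113 UMIs per 10000 in microglia and 1.02 and 0.0992 in vascular nuclei. The microglial call was lost without rat 4 (2.14) and the vascular call without rat 2 (2.68). In neurons *Fosl2* was higher than in oligodendrocytes in 3 of 5 rats (log2 fold change 1.49, SE 0.462, edgeR adjusted p = 0.00351), and this call was lost in 5 of 15 alternatives, among them without rat 2 (1.18) and without rat 4 (0.89). The level of *Fosl2* in free RNA, which held 8 *Fosl2* UMIs over all rats, exceeded that of named nuclei in 0 of 5 rats.

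**Figure D2:**
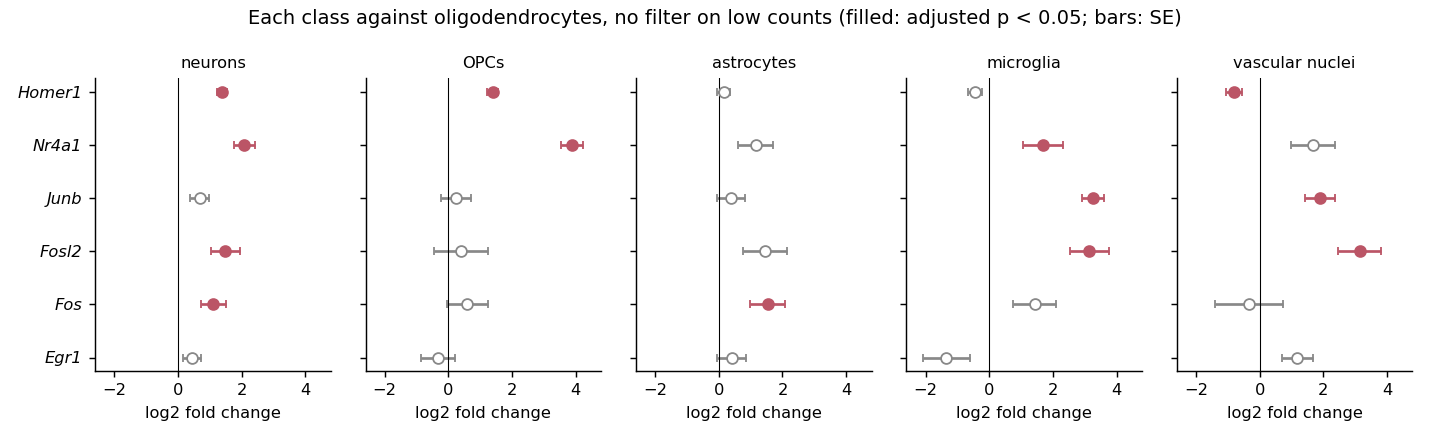
Log2 fold change of 6 members in each class against oligodendrocytes (horizontal axes), from edgeR without a filter on low counts, with standard errors as bars and filled points for an adjusted p under 0.05. *Nr4a1* in OPCs, at 3.88, *Junb* and *Fosl2* in microglia, at 3.26 and 3.14, and *Fosl2* in vascular nuclei, at 3.14, lie farthest from 0.

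*Fos*, the AP-1 subunit most used as a mark of neuronal activation, was scarce. Neurons held 5, 54, 15, 10 and 14 UMIs in rats 1 to 5, or 0.0551, 0.0386, 0.0361, 0.0120 and 0.0208 UMIs per 10000, and oligodendrocytes held 0.0270, 0.0109, 0.0382, 0.00285 and 0.00754. Neurons were higher in 4 of 5 rats and lower in rat 3, and the ranges overlapped. The log2 fold change of 1.10 (edgeR without the filter, SE 0.389, adjusted p = 0.0117) was lost without rat 2 (0.88), without rat 4 (0.998), without the replicate block and with nuclei typed by their own markers. Over 15 alternatives this value ranged from 0.81 to 3.51, so its size is poorly fixed. Astrocytes, with 17 UMIs and a mean of 0.0462 ± 0.0172 (n = 4), were above oligodendrocytes in 4 of 4 rats (log2 fold change 1.54, SE 0.544, edgeR adjusted p = 0.0201), a call lost in 6 of 15 alternatives, among them without rat 4 (1.28) and without rat 5 (1.16). A UMI of *Fos* was found in 1.5% of neurons (91 of 6075, exact 95% interval 1.21% to 1.84%, median depth 4852 UMIs), in 1.42% of astrocytes and in 0.293% of oligodendrocytes (27 of 9211, median depth 2746 UMIs), and after thinning in 0.482%, 0.549% and 0.108%.

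*Fosb*, whose stable splice form accumulates with repeated drug exposure, had 17 UMIs in neurons of all rats, 3 in oligodendrocytes, 1 in astrocytes and 0 in OPCs, microglia and vascular nuclei. It was higher in neurons than in oligodendrocytes in 5 of 5 rats, and its fit did not pass the threshold (log2 fold change 1.79, SE 0.908, edgeR adjusted p = 0.0988). In rats 1 and 3 this rests on 1 neuron UMI each. The oligodendrocyte 0 of these rats allows up to 0.0116 and 0.0382 UMIs per 10000, above the level of their neurons, so the direction there is not determined. *Arc*, which encodes a synaptic protein that forms capsid-like shells, had 11 UMIs in neurons, 3 in oligodendrocytes, 2 in astrocytes, 2 in vascular nuclei and 1 in OPCs. *Npas4*, a transcription factor induced by calcium entry in neurons, had 7 UMIs, 6 in neurons of rat 2 and 1 in neurons of rat 3, and 0 of 9211 oligodendrocytes had one, which allows a share of nuclei with a UMI of up to 0.0326% and does not limit the share expressing a gene caught this rarely. *Egr3* had no UMI in a named nucleus and 1 in the other kept barcodes. At these counts differences between classes were not detectable for *Arc*, *Npas4* and *Egr3*.

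*Egr1*, a zinc finger factor with CArG boxes in front of it, was highest in rat 3 in most classes. In neurons it stood at 0.0661, 0.0465, 0.171, 0.0204 and 0.0342 UMIs per 10000 in rats 1 to 5, and in oligodendrocytes at 0.0270, 0.0294, 0.0891, 0.0181 and 0.0189. Rat 3 was highest in both classes, as it was for *Jund*, and neurons exceeded oligodendrocytes of the same rat in 5 of 5. The difference did not pass the test (log2 fold change 0.52, SE 0.289, edgeR adjusted p = 0.107). In vascular nuclei the level was 0, 0.120, 0.34, 0.0596 and 0.0661, and the call over oligodendrocytes (log2 fold change 1.28, SE 0.488, edgeR adjusted p = 0.0273) rested on 15 UMIs, 11 of them from rat 2. It was lost in 4 of 9 alternatives, among them edgeR without the filter (1.19, adjusted p = 0.0548), without rat 4 (1.29) and without rat 5 (1.23). The 0.34 of rat 3 is 1 UMI among 29416, and vascular nuclei were above the free RNA of their library in 1 of 5 rats. *Egr1* in free RNA reached 0.855 in rat 3 and 0.0760 to 0.178 in the other rats, above the neurons of the same library in every rat.

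**Figure D3:**
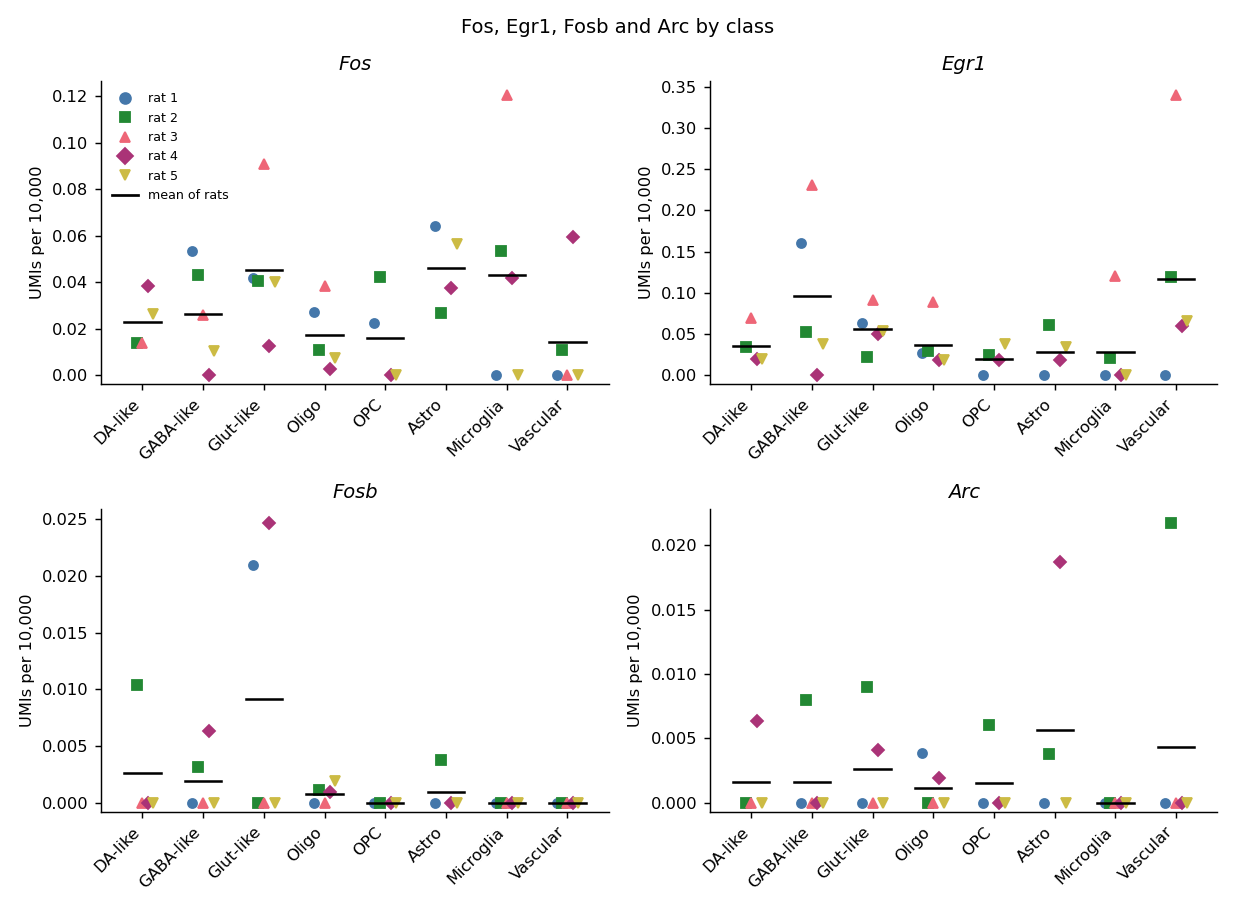
Levels of *Fos*, *Egr1*, *Fosb* and *Arc* in UMIs per 10000 (vertical axes) in 8 classes of nuclei, with 1 marker per rat and a bar at the mean of rats. Classes overlap for all 4 genes, and rat 3 is the highest in *Egr1* for GABA-like neurons and oligodendrocytes, its vascular point being 1 UMI.

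Among the neuron classes, *Homer1* differed and the other members did not pass the test. In this fit 3 of 10 members passed the filter, *Homer1*, *Nr4a1* and *Egr1*, and 20.5%, 17.4% and 4.84% of 11397 genes were called for dopaminergic-like against GABA-like, dopaminergic-like against glutamatergic-like and GABA-like against glutamatergic-like neurons. *Homer1* was 1.49, 1.74, 1.36 and 1.45 UMIs per 10000 in dopaminergic-like neurons of rats 2 to 5 and 2.34, 2.55, 2.11 and 1.80 in glutamatergic-like neurons of the same rats. Dopaminergic-like neurons were lower in 4 of 4 rats, by a log2 fold change of -0.46 (edgeR, SE 0.101, adjusted p = 0.00335), a call lost without rat 2 (-0.41), without the replicate block (-0.43, adjusted p = 0.274), with own markers and after thinning. GABA-like neurons, at 1.70 ± 0.0985 (n = 5), were lower than glutamatergic-like ones (2.20 ± 0.280, n = 5) in 5 of 5 rats, with a log2 fold change of -0.31 and an edgeR adjusted p of 0.0805, which DESeq2, doublets kept and centred libraries brought past the threshold. Without the groups led by other markers, the log2 fold changes against glutamatergic-like neurons were -0.38 for dopaminergic-like (edgeR adjusted p = 0.0147) and -0.23 for GABA-like neurons (adjusted p = 0.211). Dopaminergic-like and GABA-like neurons differed by -0.16 (approximate 95% interval -0.35 to 0.03).

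*Nr4a1* gave a log2 fold change of 0.05 between dopaminergic-like and glutamatergic-like neurons, with an approximate 95% interval of -0.78 to 0.885. For *Egr1* the interval between dopaminergic-like and GABA-like neurons was -1.85 to 0.16. Dopaminergic-like neurons held 15 *Fos* UMIs in 1055 nuclei, GABA-like neurons 33 in 1940 and glutamatergic-like neurons 19 in 829, or means of 0.0230 ± 0.0117 (n = 4), 0.0265 ± 0.0222 (n = 5) and 0.0452 ± 0.0285 (n = 5) UMIs per 10000. These ranges overlapped. *Npas4* was at 0 in dopaminergic-like neurons, which with 1055 nuclei allows a share with a UMI of up to 0.284%, and the same caution holds.

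Few nuclei held more than 1 of the 9 members other than *Homer1*. At least 1 was found in 8.30% of neurons, 10.6% of OPCs, 12% of microglia, 9.27% of vascular nuclei, 6.17% of astrocytes and 2.33% of oligodendrocytes. Nuclei with 3 or more were neurons, 19 of 6075, and the glial and vascular classes reached 2 at most. The 8 neurons with 4 or more came from rat 2 (6 nuclei) and rat 4 (2 nuclei). The highest, a glutamatergic-like neuron of rat 4 with 11108 UMIs, held 3 *Fosb*, 2 *Fosl2*, 1 *Junb*, 1 *Egr1* and 5 *Nr4a1* UMIs and no *Fos* UMI. A GABA-like neuron of rat 2 held 7 *Nr4a1*, 2 *Fos*, 1 *Fosl2* and 1 *Egr1* UMIs. Neurons had the highest median depth in every library, and these shares are not corrected for depth.

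**Figure D4:**
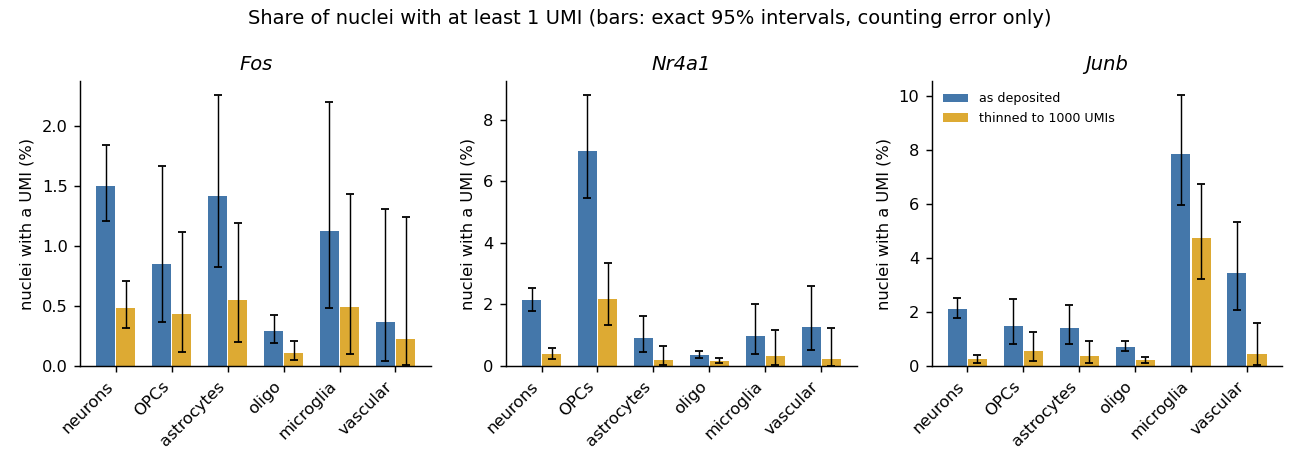
Percentage of nuclei with at least 1 UMI of *Fos*, *Nr4a1* and *Junb* (vertical axes) in 6 classes, as deposited and after thinning to 1000 UMIs, with exact 95% intervals that cover counting error only. The OPC bar of *Nr4a1*, at 6.99%, and the microglial bar of *Junb*, at 7.84%, stand above the other classes before and after thinning.

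Whether other members accompany *Fos* was examined in neurons with and without a *Fos* UMI. The 91 *Fos*-positive neurons numbered 5, 49, 14, 9 and 14 in rats 1 to 5. *Homer1* (167 UMIs) was higher in them in 5 of 5 rats, at 2.48 ± 0.564 against 1.79 ± 0.188 UMIs per 10000, with an exact two-sided sign-flip permutation p of 0.063, the smallest that 5 rats allow, and 0.375 after adjustment over 9 members. In rat 1 the levels were 2.10 and 2.05, the first resting on 9 UMIs, so the direction in that rat is within counting error. *Junb* was higher in 4 of 5 rats (13 UMIs), and *Fosl2* (15 UMIs), *Nr4a1* (23 UMIs) and *Egr1* (13 UMIs) in 3 of 5 each. Rat 2 held most of these UMIs: 10 of *Junb*, 11 of *Fosl2*, 19 of *Nr4a1* and 10 of *Egr1*. In rats 1, 4 and 5 *Junb* rested on 1 UMI each, so these counts of rats are weak. *Fos*-positive neurons were deeper in every rat, by medians of 7924 against 7161 UMIs in rat 2 and 12661 against 9773 in rat 4. The *Homer1* difference was not in every rat with doublets kept, with own markers, with centred libraries or after thinning.

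The free RNA of each library, taken from barcodes with fewer than 100 UMIs, was richer in several members than the nuclei. *Fos* stood at 0.137, 0.0444, 0.181, 0.0651 and 0.160 UMIs per 10000 in the free RNA of rats 1 to 5 and at 0.0342, 0.0287, 0.0376, 0.00852 and 0.0161 in named nuclei. It was higher in free RNA in 5 of 5 rats, as were *Junb*, *Egr1* and *Nr4a1*, whereas *Homer1* and *Fosl2* were higher in named nuclei in 5 of 5. These free RNA levels rest on 108 *Fos*, 115 *Junb*, 262 *Egr1*, 44 *Nr4a1*, 383 *Homer1* and 8 *Fosl2* UMIs over all rats. Comparisons of *Nr4a1* and *Fosl2* with free RNA, here and above, are thus open to counting error. *Fos* was above the free RNA of its library in 0 of 5 rats for neurons and in 0 of 4 for astrocytes. Kept barcodes that fell in no named class, with median depths of 709 to 1048 UMIs, held 185 *Fos* UMIs against 160 in the named nuclei. Rats 1 and 2 gave 67 and 98 of the 185, from 1931 and 11341 such barcodes beside 690 and 6657 named nuclei. The median mitochondrial share of these barcodes was 4.22% in both rats, against 0.680% and 1.16% in named nuclei. Per 10000 UMIs, *Fos* was higher in barcodes of no named class than in named nuclei in 4 of 5 rats.

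Kept barcodes accounted for 24.8% to 56.3% of all UMIs of a library. For *Fos* the share was 11.1% to 34.8% (367 of 1652 UMIs), and it was below that of all genes in 5 of 5 rats, as it was for *Fosb*, *Junb* and *Egr1*. For *Homer1* it was 24.2% to 78.0% (10042 of 17795 UMIs) and for *Fosl2* 19.4% to 100% (161 of 271 UMIs), each below that of all genes in 1 of 5 rats. The free RNA share of the class sums, estimated as an upper limit from markers of other classes, was 8.89% to 20.4% in neurons, 13.5% to 34.5% in oligodendrocytes, 28.2% to 55.7% in OPCs, 19.9% to 57.2% in astrocytes and 31.8% to 71.6% in microglia and vascular nuclei, and its part in the levels above was examined by subtracting free RNA.

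**Figure D5:**
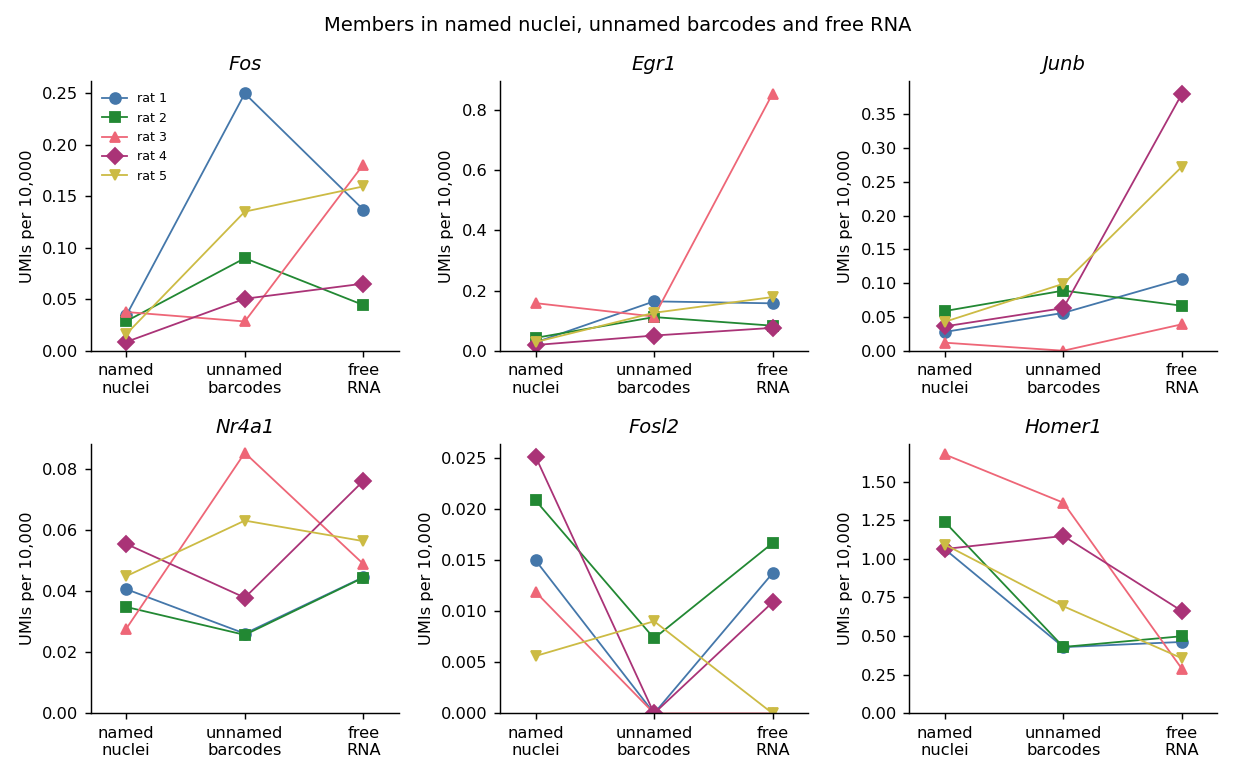
Levels of 6 members in UMIs per 10000 (vertical axes) in named nuclei, in kept barcodes of no named class and in free RNA, with 1 line per rat. Lines of *Fos*, *Egr1*, *Junb* and *Nr4a1* end higher in free RNA than they begin in named nuclei, and those of *Homer1* end lower.

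Other genes of the same response were read from 3 lists. Of 41 other immediate early genes, 23 passed the filter. Against oligodendrocytes, 11 were higher and 6 lower in neurons, 6 and 3 in astrocytes, 6 and 3 in OPCs, 12 and 3 in microglia and 13 and 1 in vascular nuclei. Among all genes tested, the shares higher and lower were 37.0% and 31.5% in neurons, 24.7% and 22.1% in astrocytes, 22.5% and 19.9% in OPCs, 20.7% and 22.2% in microglia and 28.0% and 25.0% in vascular nuclei. The lists were chosen with earlier results of these data known and their counts are descriptions. The median log2 fold change of the 23 was 0.60 in neurons, 0.33 in astrocytes, 0.01 in OPCs, 1.02 in microglia and 1.02 in vascular nuclei, beside medians of all genes between -0.06 and 0.05. *Klf4*, a transcription factor of endothelial cells among others, stood at 0.669 against 0.00300 UMIs per 10000 in vascular nuclei (log2 fold change 6.62), and *Btg2* and *Plk2* were higher there by 4.24 and 3.42. *Dusp6*, a phosphatase that limits ERK signalling, was higher in microglia by 4.93, in OPCs by 3.25 and in astrocytes by 2.23. *Trib1* was higher in the same 3 classes by 4.78, 4.16 and 4.14. In neurons *Inhba* (3.26), *Ier3* (3.09) and *Bdnf* (2.94), the neurotrophin gene, were higher, and *Nptx2* (-2.48) and *Nfil3* (-2.0) lower. Each of these passed the edgeR test and moved the same way in every rat of the comparison.

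Between neuron classes, 16 of the 41 were tested, with 5 higher and 4 lower in dopaminergic-like than in GABA-like neurons (9.94% and 10.5% of all genes), 4 and 5 against glutamatergic-like neurons (8.49% and 8.93%), and 0 and 2 for GABA-like against glutamatergic-like neurons (2.66% and 2.18%). *Nr4a2*, the relative of *Nr4a1* that maintains dopamine neurons, was 0.727 UMIs per 10000 in dopaminergic-like and 0.0514 in GABA-like neurons (log2 fold change 3.6, edgeR adjusted p = 4.1e-08), a gene that follows the dopaminergic class itself. *Bdnf* was higher in dopaminergic-like than in GABA-like neurons (2.39) and lower in GABA-like than in glutamatergic-like ones (-2.51). *Inhba* and *Nr4a3* were lower in dopaminergic-like than in glutamatergic-like neurons, by log2 fold changes of -1.82 and -1.38. *Vgf* was lower in dopaminergic-like than in GABA-like neurons (-1.12), and so was *Jund* (-0.99), which in rat 3 stood at 4.31 and 12 UMIs per 10000 in these classes.

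Of 25 upstream regulators, 24 were tested, with 9 higher and 6 lower in neurons than in oligodendrocytes, 4 and 7 in astrocytes, 6 and 5 in OPCs, 7 and 6 in microglia and 7 and 9 in vascular nuclei. The shares of all genes given above are their background, and so for the stress genes below. In neurons 37.0% of all genes tested were higher and 31.5% lower, beside 9 and 6 of 24, and in vascular nuclei 28.0% and 25.0%, beside 7 and 9. Those most raised in neurons were the calcium-dependent kinases *Camk2a* (log2 fold change 5.66), *Camk4* (5.33) and *Camk2b* (3.01) and the transcription factor *Mef2c* (3.05), and *Crem* (-2.15), a CREB family member, was lower. *Mef2c* stood in microglia at 15.6 UMIs per 10000 against 0.142 in oligodendrocytes (6.29). The heat shock and stress genes, 8 of 10 tested, had 0 higher and 4 lower in neurons (37.0% and 31.5% of all genes), 1 and 0 in astrocytes, 1 and 2 in OPCs, 1 and 0 in microglia and 2 and 0 in vascular nuclei. *Hspa8* (-0.86) and *Hsp90aa1* (-0.85) were among those lower in neurons, and *Hspb1* (4.77) was higher in vascular nuclei. Among all other genes, those whose pattern over 37 sums of library and class was closest to *Homer1* were *Mapk10*, *Fgf12* and *Dmxl2*, with Pearson correlations of 0.939, 0.933 and 0.928 after centring within libraries. Sums of a library share its depth, and this is a description. No other member reached the mean of 20 UMIs per sum required for such a comparison.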

How the data were processed

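Nuclei of VTA punches of 5 rats were profiled with 10x droplet snRNA-seq. The authors deposited unfiltered UMI counts per gene and barcode. The sample labels name Cell Ranger 8.0.1, the matrix headers another version, and the genome build is not given in the sources used here. Per the file headers, values are whole counts with no normalization. The study's methods go on to SoupX correction, filters and doublet removal. The deposited tables hold whole counts for all 827032 to 2042313 listed barcodes, so they precede the filters.

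Barcodes with at least 600 UMIs, more than 200 and fewer than 5000 genes and under 5% mitochondrial UMIs were kept. Doublet scores came from Scrublet in scanpy 1.11.5. Its automatic threshold marked 0 or 1 barcode per library, so barcodes scoring strictly above the score that bounds the top 5% were removed (112 to 929 per library). Clustering (2000 variable genes without members and list genes, 10 components, 20 neighbours, leidenalg 0.10.2, resolution 1) and the naming of clusters by at least 3 raised markers were followed by a second clustering of neurons (30 components, resolution 2). Naming thresholds and the doublet rule were set after clusters had been seen. UMIs were summed per library and class with at least 20 nuclei.

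Sums were tested with the edgeR 4.0.16 quasi-likelihood test (R 4.3.3, TMM, filterByExpr, rat as block, adjusted p under 0.05). Cells were not treated as replicates in these tests. With the rat as a block, p-values measure the variation that remains between the sums of 5 rats, 4 in some classes, counting error included. Classes were paired because their sums come from 1 animal. Deviations from class means correlated between classes of 1 rat at 0.0171 to 0.806 over 10684 genes. The test was tried on simulated counts with a fixed dispersion and no difference between rats other than depth. Changes were set only in genes above a floor of UMIs, and shares are of the changed genes that passed the filter. Members below that floor, among them *Fos* and *Fosl2*, are not covered by these shares. For neurons against oligodendrocytes, 100% of such genes changed 4-fold up or down, 46.5% of those raised 2-fold and 38.6% of those lowered 2-fold were called. For dopaminergic-like against GABA-like neurons the shares were 100% and 88% of genes raised and lowered 4-fold and 28% and 18% of those raised and lowered 2-fold.

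Alternatives were DESeq2 1.42.0, its size factors, no filter, no block, each rat left out, at least 1000 UMIs, doublets kept, typing by own markers, 30 components with libraries centred, free RNA subtracted, and thinning to 1000 UMIs. Leaving out groups of neurons led by markers of another type, and repeating each alternative without the filter for members that did not pass it, were added after seeing the data. Named genes were the 10 members, up to 5 genes per list and comparison with the largest change among those called and moving the same way in every rat, list genes whose call depends on a setting, and the 3 genes most like a member, of which the text describes a part. Members and lists were chosen with earlier results of these data known. Intervals of shares are exact (Clopper-Pearson) and, like limits for a count of 0 (3 nuclei of the total), cover counting error only. Shares pool the nuclei of all rats, and these intervals treat nuclei as independent. The *Homer1* isoforms share 1 gene count. Promoter windows are RefSeq sequences of GRCr8.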

Additional observations from a re-analysis of the deposited data

Results flagged for a closer look

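In 33 groups of 4 or 5 rats with at least 20 UMIs behind the level, 4 had 1 rat far from the others. For independent, normally distributed values chance gives about 1 in 20. These levels are bounded at 0 and groups share rats and nuclei, so that rate is only a rough guide. *Egr1* in oligodendrocytes was highest in rat 3 at 0.0891 UMIs per 10000. *Nr4a1* in oligodendrocytes was highest in rat 4 at 0.0257. *Junb* was lowest in dopaminergic-like neurons of rat 3, at 0, and in GABA-like neurons of rat 4, at 0.0190. The 0 of rat 3 is out of 723070 UMIs and allows up to 0.0415, where the highest rat stood at 0.0450. That rat is therefore not shown to lie apart.

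The 1136 barcodes with 5000 or more genes that passed the other limits, which the comparisons leave out, also held members. They contained 4651 UMIs of *Homer1*, 143 of *Nr4a1*, 128 of *Junb*, 113 of *Egr1*, 111 of *Fos*, 72 of *Fosl2*, 13 of *Arc*, 11 of *Fosb*, 7 of *Npas4* and 2 of *Egr3*. In the 4 rats with more than 3 such barcodes, *Fos* stood at 0.0252 to 0.0558 and *Homer1* at 1.47 to 1.68 UMIs per 10000 in them.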

How the results depend on the processing

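Calls of *Homer1* in neurons (log2 fold changes 1.20 to 1.70) and OPCs (1.30 to 1.86), of *Junb* in microglia (2.99 to 6.50) and vascular nuclei (1.83 to 3.39) and of *Nr4a1* in OPCs (3.6 to 5.71) were kept in every alternative that tested them with the same filter. *Junb* did not pass that filter after thinning, and own markers named no vascular class. Thinned without the filter, *Junb* was called in microglia (4.09) and not in vascular nuclei (0.58). Without rat 3, of the calls of members in the report, that of *Junb* in neurons (0.71) was lost. The number of members called in neurons, 2, became 1 with centred libraries, no replicate block, thinning and groups led by other markers left out and 4 without the filter, and 1 to 2 with a rat left out. In OPCs it went from 1 to 2 with doublets kept, no filter and own markers, and was 1 to 2 with a rat left out. In astrocytes it went from 0 to 1 with DESeq2, its size factors and no filter. In microglia it went from 1 to 2 with doublets kept and free RNA subtracted, 3 without the filter and 0 after thinning, and was 1 to 2 with a rat left out. In vascular nuclei it went from 3 to 1 after thinning and was 1 to 3 with a rat left out, 1 being without rat 2. The vascular count also fell with DESeq2 and with its size factors, which lost the call of *Homer1*. For dopaminergic-like against glutamatergic-like neurons it went from 1 to 0 with no replicate block, thinning and own markers, and was 0 to 1 with a rat left out. For GABA-like against glutamatergic-like neurons it went from 0 to 1 with centred libraries, DESeq2 and doublets kept. For dopaminergic-like against GABA-like neurons it stayed at 0. Fewer UMIs remain after thinning, and the cause of the other changes was not tested.

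Values that did not pass the test changed sign for *Egr1* in GABA-like against glutamatergic-like neurons (-0.52, centred), *Homer1* in astrocytes (-0.0149, thinned) and in dopaminergic-like against GABA-like neurons (0.0154, own markers), *Junb* in OPCs (-0.0128 centred, -0.23 to 0.557 with a rat left out) and astrocytes (-1.01 with free RNA subtracted, -0.00774 to 0.903 with a rat left out), and *Nr4a1* in GABA-like against glutamatergic-like (-0.00655 centred, -0.0631 DESeq2, -0.00617 doublets kept, -0.23 no replicate block, -0.12 without groups led by other markers, -0.13 to 0.169 with a rat left out), dopaminergic-like against GABA-like (-0.17 centred, -0.0240 no filter, -0.00635 without those groups, -0.0371 to 0.329 with a rat left out) and dopaminergic-like against glutamatergic-like neurons (-0.17 centred, -0.18 no replicate block, -0.13 without those groups). *Nr4a1* in microglia turned from 1.70 to -4.67 with own markers.

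Neurons had the highest mean for 2 members, and for 4 with free RNA subtracted and with own markers. The number of members higher in every rat in *Fos*-positive neurons went from 1 to 0 with centred libraries, at least 2 *Fos* UMIs, doublets kept, thinning and own markers, and was 1 to 2 with a rat left out. Counts of all genes called moved as follows. For GABA-like against glutamatergic-like neurons, 552 became 91 without the replicate block, 237 thinned, 218 with own markers, 288 without rat 2, 912 centred and 978 without the filter. For dopaminergic-like against GABA-like neurons, 2335 became 773 without the block, 909 thinned, 1480 with own markers and 1421 without rat 2, and against glutamatergic-like neurons 1986 became 652, 701, 635 and 1231. Thinning took neurons from 8247 to 4930, OPCs from 5102 to 3030, astrocytes from 5637 to 3269, microglia from 5173 to 3118 and vascular nuclei from 6380 to 3296. Depth limits the members other than *Homer1*, which rest on 7 to 182 UMIs in neurons where they had any.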
